A study of Drosophila virilis and Drosophila willistoni and Drosophila miranda with 119 samples.

Results

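The fruit fly genus Drosophila holds the subgenus Sophophora, to which D. melanogaster belongs, and the subgenus Drosophila, represented here by D. virilis and D. mojavensis. The change of mRNA levels between stage 2 and stage 5 embryos was compared between these subgenera. Of 3764 genes with an ortholog in all 14 species, 3496 with a mean of at least 1 FPKM over the 26 columns used were examined. Both D. virilis and D. mojavensis lay outside the range of the 11 Sophophora species, on the same side, in 335 genes. The change is log2(FPKM+1) at stage 5 minus stage 2 (FPKM corrects the fragments of a gene for its transcript length and the library total; all changes and differences below are on this log2 scale). The 335 genes were chosen by these values, so their changes describe them and are no support for a difference.

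A Drosophila embryo starts with mRNA made by its mother. Before stage 2 is over little is transcribed from its own genome, and over the maternal-to-zygotic transition much of the maternal mRNA is degraded while zygotic transcription starts. By stage 5 the blastoderm forms cells and the zygotic genome is active. The level at stage 2 is therefore read as maternal supply, and the level at stage 5 as what remains of it together with zygotic mRNA. The data do not separate maternal from zygotic mRNA at stage 5.

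The series has 119 single embryos, and the labels name no treatment or altered genotype. The labels give 7 D. virilis and 6 D. mojavensis embryos at stage 2, 6 and 5 at stage 5, and 3 to 6 per stage for each Sophophora species (D. simulans, D. sechellia, D. mauritiana, D. yakuba, D. santomea, D. erecta, D. ananassae, D. pseudoobscura, D. persimilis, D. miranda and D. willistoni). Embryos of a species and stage are combined in 1 deposited value, so species were the replicates, whole embryos were read so that fewer cells of a type and less RNA per cell cannot be told apart, and stage 2 and stage 5 embryos were different individuals. D. melanogaster entered with stage 2 alone, as a column that chose no gene. D. virilis and D. mojavensis are 1 clade, so the comparison is 1 split of the species tree and subgenus cannot be told apart from anything else on which this pair differs. RNA of D. mojavensis and of 4 Sophophora species at both stages (D. simulans, D. sechellia, D. santomea and D. persimilis), and of D. virilis at stage 2, was sequenced mixed with D. melanogaster material. The libraries of D. pseudoobscura and D. miranda and the stage 5 libraries of D. yakuba and D. virilis are reanalysed from earlier series. For D. pseudoobscura and D. miranda the molecule is labelled total RNA rather than polyA RNA, their stage 5 embryos carry a sex and the name latest5, the miranda embryos come from a cross of MSH22 and SP138 and the pseudoobscura embryos from Flagstaff 14 and PP1134, and 1 D. pseudoobscura stage 2 embryo is marked as possibly unfertilized.

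Stage markers had the direction these genes are known for in both subgenus Drosophila species. The maternal mRNAs of osk, bcd, aret, gnu and twe were lower at stage 5 in both, with osk at 421.5 FPKM at stage 2 and 8.95 at stage 5 in D. virilis and at 408.0 and 11.1 in D. mojavensis. The zygotic mRNAs of Kr, ftz, prd, twi and sna were higher, with ftz at 163.3 FPKM in D. virilis and 223.1 in D. mojavensis at stage 5 and below 0.01 in both at stage 2. In none of these 10 markers did both species leave the Sophophora range on the same side. For gnu, D. mojavensis lay above it, with a change of -1.57 against -7.09 to -2.53, and was still at 64.6 FPKM at stage 5. D. virilis, with a gnu change of -5.71, lay inside. The median change over the tested genes was 0.50 in D. virilis and 0.48 in D. mojavensis, against 0.29 to 0.54 among the Sophophora species, so the pair lay inside the range of the other species. Lists for other tissues held few expressed genes: 1 gut gene, 1 muscle gene, 1 testis gene, 1 eggshell and follicle cell gene and 3 blood cell genes were tested, no neuron, yolk or fat body gene was, and in none of these were both species outside the range on the same side.

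In both species the change was above the highest Sophophora value in 159 genes (4.55% of those tested) and below the lowest in 176 (5.03%). With limma on 13 species, 28 genes were called higher in subgenus Drosophila (0.801%) and 37 lower (1.06%), at an adjusted p under 0.05 and a difference of at least 1, and 64 of these 65 lie among the 335, all but CG4552. Both readings use the same 13 values per gene, so neither backs the other. The median difference between the subgenera was 1.83 in the 159 genes and -1.87 in the 176, against 0.04 over all tested genes. D. virilis and D. mojavensis lay closer to each other in these genes, at a median distance of 0.38 and 0.52, than over all tested genes at 0.76, which the choice of genes favours. The distance to the nearest Sophophora species was at least 1 in 34 and 25 genes and under 0.25 in 62 and 72. At that edge Trn-SR lay outside by 0.000861 with changes of 1.68 in D. virilis and 2.12 in D. mojavensis against a Sophophora highest value of 1.68, and CG8270 inside with 1.39 and 2.02 against 1.39; on the lower side ACC (acetyl-CoA carboxylase, of fatty acid synthesis) lay outside with -2.77 in D. virilis and -4.27 in D. mojavensis against a Sophophora lowest value of -2.77, and CG12003 inside with 0 and -0.05 against 0.

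The number of limma calls depended on how the species were counted. It was 8 higher and 28 lower without D. virilis, 15 and 16 without D. mojavensis and 16 and 27 without D. simulans. With 1 mean per Sophophora clade it was 5 and 10, and with shared ancestry in the model (phylogenetic least squares) 2 and 4. The tree in that model gave every branch the same length, not a measured one. Species behind more splits were therefore assumed to vary more than D. virilis and D. mojavensis. Of the 26 called genes that the rule of naming picked, 7 kept their call both without D. virilis and without D. mojavensis: l(3)neo38, Sdr, Pdi, CG14194, Tsp39D, CG14450 and Prestin. In those fits the lone species is assumed to vary like the Sophophora species. With shared ancestry in the model, 6 of the 26 kept their call: l(3)neo38, Sdr, Pdi, Tsp39D, CG14450 and CG7255, while Prestin (limma adjusted p = 0.428), CG14194 (0.0782) and the others lost theirs. The split of the genes outside the range moved to 196 above and 143 below when the columns were scaled to a common total. That total was taken over the genes below 100000 FPKM in every column.

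**Figure D1:**
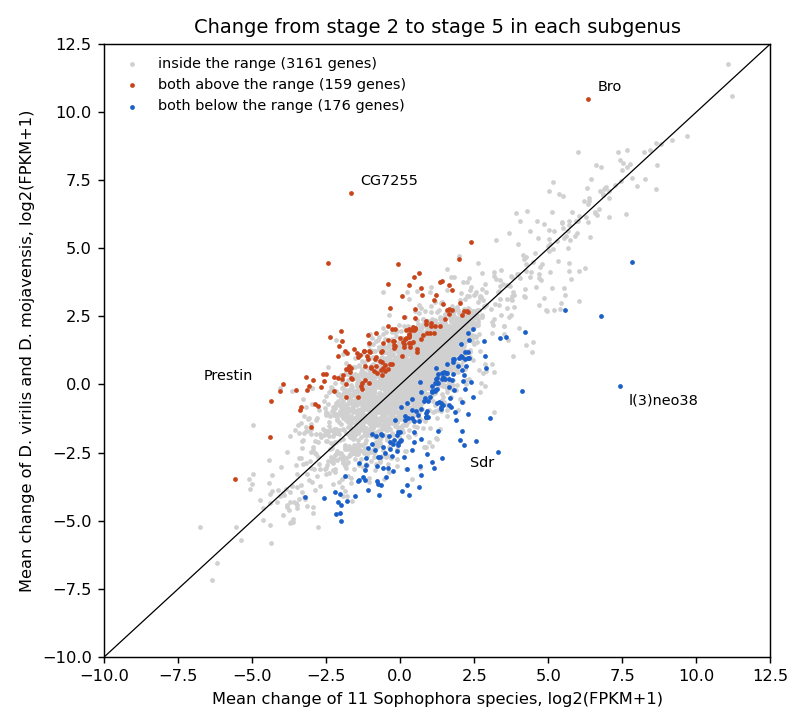
Each point is 1 of the 3496 tested genes, with the mean change from stage 2 to stage 5 on the log2(FPKM+1) scale in 11 Sophophora species on the x axis and in D. virilis and D. mojavensis on the y axis; the line marks equal change. The 159 genes with both species above the Sophophora range (red) and the 176 with both below it (blue) lie on either side of the line, and l(3)neo38, with a difference of -7.47, and CG7255, with 8.70, lie farthest from it.

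Genes with a lower change in subgenus Drosophila were led by l(3)neo38, which codes for a zinc finger protein. Its mRNA was at 29.7 FPKM at stage 2 and 16.9 at stage 5 in D. virilis, and at 44.9 and 72.1 in D. mojavensis. In the Sophophora species it lay between 0.0865 and 1.2 (median 0.199) at stage 2 and between 144 and 497 (median 228) at stage 5. No Sophophora species reached either D. virilis or D. mojavensis at stage 2, and all of them exceeded both at stage 5. The D. melanogaster stage 2 value, which the choice of genes did not use, was 0.157 FPKM and lay inside the Sophophora range. That column lay inside the range in 3202 of 3496 tested genes (91.6%). The changes were -0.78 in D. virilis and 0.67 in D. mojavensis against 6.07 to 8.81, a difference of -7.47 ± 0.65 (SE, 13 species; limma adjusted p = 1.55e-05). At stage 2 the mRNA was thus present in the subgenus Drosophila and at no more than 1.20 FPKM in any Sophophora species.

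The next largest gap was that of Sdr, which codes for a secreted relative of the insulin receptor known to bind and hold back insulin-like peptides. Sdr mRNA was at 29.9 FPKM at stage 2 and 7.41 at stage 5 in D. virilis, and at 26.9 and 3.61 in D. mojavensis. The Sophophora species had 8.47 to 30.7 (median 17.4) at stage 2 and 41.6 to 167 (median 78.7) at stage 5. The subgenera overlapped at stage 2 and were apart at stage 5, where the level was below its stage 2 value in both subgenus Drosophila species and above it in all Sophophora species. The difference of the change was -4.39 ± 0.40 (SE; limma adjusted p = 1.55e-05).

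Pdi, protein disulfide isomerase of the endoplasmic reticulum, was among the most abundant of these mRNAs. It was at 284 FPKM at stage 2 and 236 at stage 5 in D. virilis, and at 300.0 and 283 in D. mojavensis, and between 130.1 and 419 (median 269) at stage 2 in the Sophophora species. At stage 5 the Sophophora species had 619.5 to 2522 (median 1255), with no overlap with D. virilis or D. mojavensis. D. virilis and D. mojavensis therefore held about their stage 2 level, with changes of -0.27 in D. virilis and -0.09 in D. mojavensis, where the Sophophora species ranged from 1.77 to 2.58. The difference was -2.38 ± 0.22 (SE; limma adjusted p = 1.86e-05).

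CG14194 mRNA was at 30.3 FPKM at stage 2 and 12.9 at stage 5 in D. virilis, and at 30.9 and 3.24 in D. mojavensis. In the Sophophora species it lay between 34.8 and 67.2 (median 43.3) at stage 2 and between 154 and 250.4 (median 195) at stage 5. At both stages the pair lay below all Sophophora species, and the stage 5 levels stood farther apart. The change differed by -4.07 ± 0.41 (SE; limma adjusted p = 3.27e-05). Tsp39D, a tetraspanin (a small membrane protein that organizes other membrane proteins), was at 146 FPKM at stage 2 and 11.1 at stage 5 in D. virilis, and at 171 and 28 in D. mojavensis, against 2.55 to 147 (median 71.4) at stage 2 and 14.5 to 571 (median 134) at stage 5 in the Sophophora species. Its levels overlapped between the subgenera at stage 2, and at stage 5 D. mojavensis, but not D. virilis, lay inside the Sophophora range. Mgstl, a microsomal glutathione S-transferase of detoxification, was at 81.3 FPKM at stage 2 and 14.4 at stage 5 in D. virilis, and at 181 and 4.28 in D. mojavensis, with 70.7 to 187 (median 139) in the Sophophora species at stage 5. The difference of the change was -4.22 ± 0.61 for Tsp39D and -4.38 ± 0.61 for Mgstl (SE; limma adjusted p = 0.0022 and 0.0018); without D. mojavensis the Mgstl difference was -3.04 and its limma adjusted p 0.0520.

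CG13016, CG1104 and CG31637 were lower at stage 5 than at stage 2 in both subgenus Drosophila species, to a degree that no Sophophora species reached. CG13016 was at 33.6 FPKM at stage 2 and 2.47 at stage 5 in D. virilis, and at 23.9 and 1.48 in D. mojavensis, with 8.48 to 56.4 (median 30.7) and 18.9 to 227 (median 41) in the Sophophora species at the same stages. The change of CG1104 was -2.83 in D. virilis and -3.35 in D. mojavensis, against -0.92 to 1.38. That of CG31637 was -4.20 in D. virilis and -4.01 in D. mojavensis, against -2.42 to -0.84, so that here the mRNA was lower at stage 5 in all 13 species. The limma adjusted p was 0.00581, 0.0144 and 0.017, and none of these 3 calls held without D. virilis or without D. mojavensis (adjusted p of 0.0551 to 0.142).

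D. virilis and D. mojavensis were unlike each other in CG10470, with changes of -0.51 in D. virilis and -4.89 in D. mojavensis against 0.91 to 1.90 in the Sophophora species. It was at 59.3 FPKM at stage 2 and 41.5 at stage 5 in D. virilis, and at 50.1 and 0.724 in D. mojavensis, and without D. mojavensis the difference of -4.10 ± 0.69 (SE; limma adjusted p = 0.0067) became -1.91 (adjusted p = 0.0707). A16 and CSN8 were under 1 FPKM at stage 5 in both species. A16 was at 20.8 FPKM at stage 2 and below 0.01 at stage 5 in D. virilis, and at 8.9 and 0.258 in D. mojavensis, where the Sophophora species had 16.4 to 103 (median 46.4) at stage 5 (difference -3.93 ± 0.71; limma adjusted p = 0.00999, and 0.139 without D. virilis). CSN8, a subunit of the COP9 signalosome that controls ubiquitin ligases, was at 1.75 FPKM at stage 2 and below 0.01 at stage 5 in D. virilis, and at 5.51 and below 0.01 in D. mojavensis. In the Sophophora species CSN8 ranged from 0 to 252 FPKM at stage 5, and its difference of -4.64 ± 1.26 was not called (SE; limma adjusted p = 0.0753, but 0.0319 without D. ananassae and 0.0452 without D. willistoni).

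**Figure D2:**
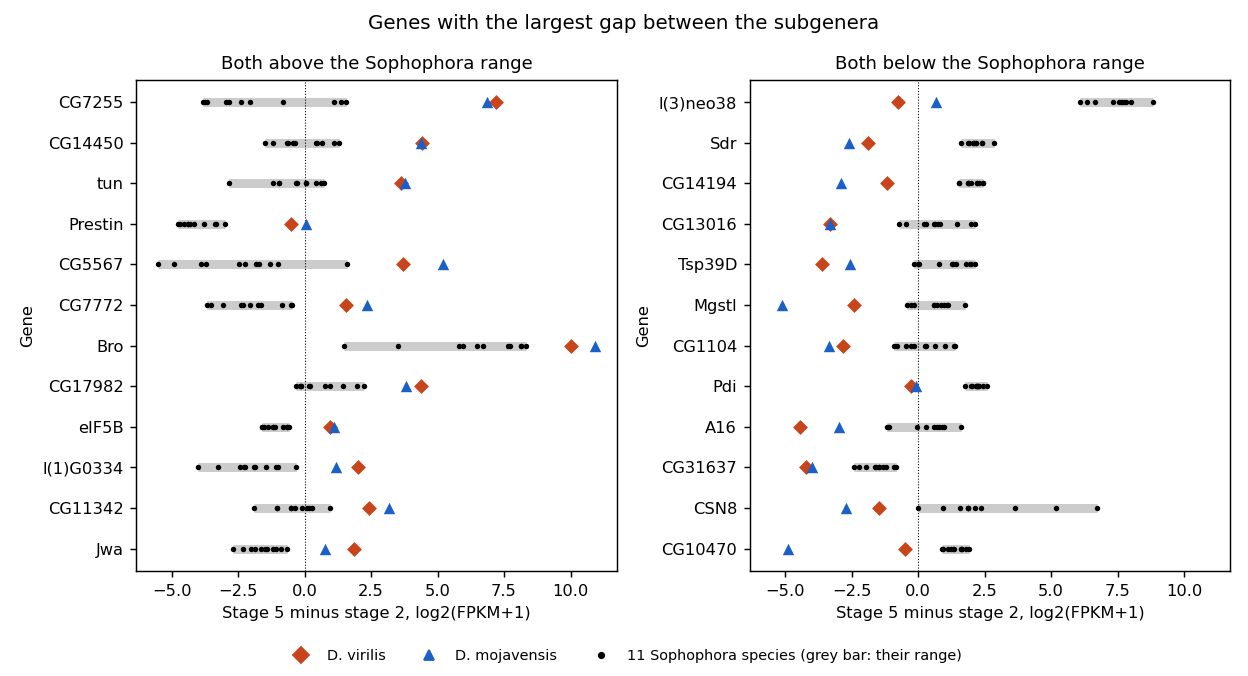
Change from stage 2 to stage 5 on the log2(FPKM+1) scale in the 12 genes per direction with the largest distance between the pair and the nearest Sophophora species. Only genes at 1 FPKM or above at either stage in D. virilis, D. mojavensis and at least 9 Sophophora species were eligible. Diamonds are D. virilis, triangles D. mojavensis, black points the 11 Sophophora species and grey bars their range. In CG10470 the pair lies 4.38 apart, while in Pdi it lies within 0.18.

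In the other direction the largest gap was that of CG7255. Its mRNA was below 0.01 FPKM at stage 2 and at 146 at stage 5 in D. virilis, and listed at 0 and at 116 in D. mojavensis. The Sophophora species had 5.53 to 29.2 (median 15.8) at stage 2 and 0.198 to 64.8 (median 1.06) at stage 5. It was maternally present in every Sophophora species and in D. melanogaster (16.8 FPKM), and in D. virilis and D. mojavensis reached 1 FPKM at stage 5 only. The difference was 8.70 ± 1.37 (SE; limma adjusted p = 0.00438, and 0.0520 without D. virilis). A value near 0 can also be a failed estimate of the authors' quantification: 15 of the 159 genes had a value below 0.01 FPKM at stage 2 in D. virilis or D. mojavensis, and 13 of the 176 at either stage. Without all 323 tested genes of that kind, an exclusion chosen after the values were seen, 144 and 163 genes lay outside the range and limma called 20 and 35.

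CG14450, CG5567 and CG17982 were likewise low at stage 2, but in none of them were both species above the Sophophora range at stage 5. CG14450 was below 0.01 FPKM in D. virilis and at 1.58 in D. mojavensis at stage 2, under all Sophophora species (between 9.98 and 44.5), and at 20.6 and 52.5 at stage 5, inside their range. CG5567 and CG17982 were below 0.01 FPKM at stage 2 in both species, with Sophophora medians of 36.8 and 21.6. At stage 5 CG5567 was at 11.9 in D. virilis, inside the Sophophora range, and at 35.8 in D. mojavensis, above it, while CG17982 was at 19.6, inside, and at 12.9, just below. tun and CG11342 were also low at stage 2 alone. The tun mRNA was at 1.42 FPKM at stage 2 and 29.2 at stage 5 in D. virilis, and at 0.0907 and 13.8 in D. mojavensis, and between 17.7 and 58.1 (median 38.2) at stage 2 in the Sophophora species. CG11342 was at 1.06 FPKM at stage 2 and 10.1 at stage 5 in D. virilis, and at 0.0638 and 8.61 in D. mojavensis, against 7.68 to 44.7 (median 19.4) at stage 2. The limma adjusted p was 0.00338 for CG14450, 0.0136 for CG5567, 0.0148 for CG17982, 0.00894 for tun and 0.0165 for CG11342; of these, CG14450 alone was also called without D. virilis and without D. mojavensis, and the other 4 calls were lost in both cases (adjusted p of 0.0682 to 0.166).

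Prestin, an anion transporter of the SLC26 family, had similar levels at both stages in each subgenus Drosophila species and lower levels at stage 5 in the Sophophora species. It was at 65.7 FPKM at stage 2 and 46.1 at stage 5 in D. virilis, and at 8.64 and 8.88 in D. mojavensis. In the Sophophora species the mRNA lay between 15.9 and 48.1 (median 29.2) at stage 2 and between 0.169 and 2.53 (median 0.619) at stage 5. At stage 2 the D. virilis level was above all Sophophora species and the D. mojavensis level below all of them. At stage 5 every Sophophora species was below both subgenus Drosophila species. The changes were -0.50 in D. virilis and 0.04 in D. mojavensis against -4.74 to -2.98, a difference of 3.83 ± 0.56 (SE; limma adjusted p = 0.00256).

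CG7772, Jwa, eIF5B and l(1)G0334 were higher at stage 5 than at stage 2 in both subgenus Drosophila species and lower in every Sophophora species. eIF5B, a factor that joins the ribosomal subunits at the start of translation, was at 28.9 FPKM at stage 2 and 56.8 at stage 5 in D. virilis, and at 34.6 and 76.2 in D. mojavensis, with 1.02 to 29.3 (median 15.1) at stage 5 in the Sophophora species. l(1)G0334, which codes for a subunit of pyruvate dehydrogenase, was at 68.6 FPKM at stage 2 and 282 at stage 5 in D. virilis, and at 37.6 and 85.9 in D. mojavensis. Its stage 5 level in the Sophophora species was between 5.4 and 78.5 (median 20.2), all below both. CG7772 was at 13.3 FPKM at stage 2 and 40.9 at stage 5 in D. virilis, and at 7.06 and 39.9 in D. mojavensis, against 0.234 to 12.6 (median 3.32) at stage 5. Jwa was at 30.2 FPKM at stage 2 and 113 at stage 5 in D. virilis, and at 58 and 99.4 in D. mojavensis, against 7.64 to 44.7 (median 25.2) at stage 5. The differences were 2.15 ± 0.44, 3.58 ± 0.72, 3.96 ± 0.81 and 2.88 ± 0.51 in that order (SE; limma adjusted p = 0.017, 0.0165, 0.0175 and 0.00894). Without D. virilis none of the 4 was called (adjusted p of 0.0864 to 0.168), and without D. mojavensis Jwa alone was.

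Bro codes for a partner of the Runt transcription factors that helps them to bind DNA. Bro mRNA was listed at 0 at stage 2 in D. virilis and at 0.0368 FPKM in D. mojavensis, and reached 1048 and 2008 at stage 5. The Sophophora species had 32.5 to 344 (median 183) at stage 5. All 11 lay below both, yet their changes spread from 1.48 to 8.31, and the difference of 4.12 ± 1.38 was not called (SE; limma adjusted p = 0.157). The second partner, Bgb, is in the wider table only, with values in 9 Sophophora species. Bgb was at 45.8 FPKM at stage 2 and 158 at stage 5 in D. virilis and at 35.1 and 156 in D. mojavensis, against 15.7 to 118 at stage 5 in the 9 species. Its level at stage 5 was thus also above all of theirs, and its changes of 1.76 and 2.12 lay above the highest of the 9 species, 1.72. The mRNA of run, the Runt factor itself, lay inside the range of 10 Sophophora species in the wider table, with changes of 5.80 in D. virilis and 6.52 in D. mojavensis against 5.62 to 6.71. Both genes were looked up after the Bro values were seen.

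**Figure D3:**
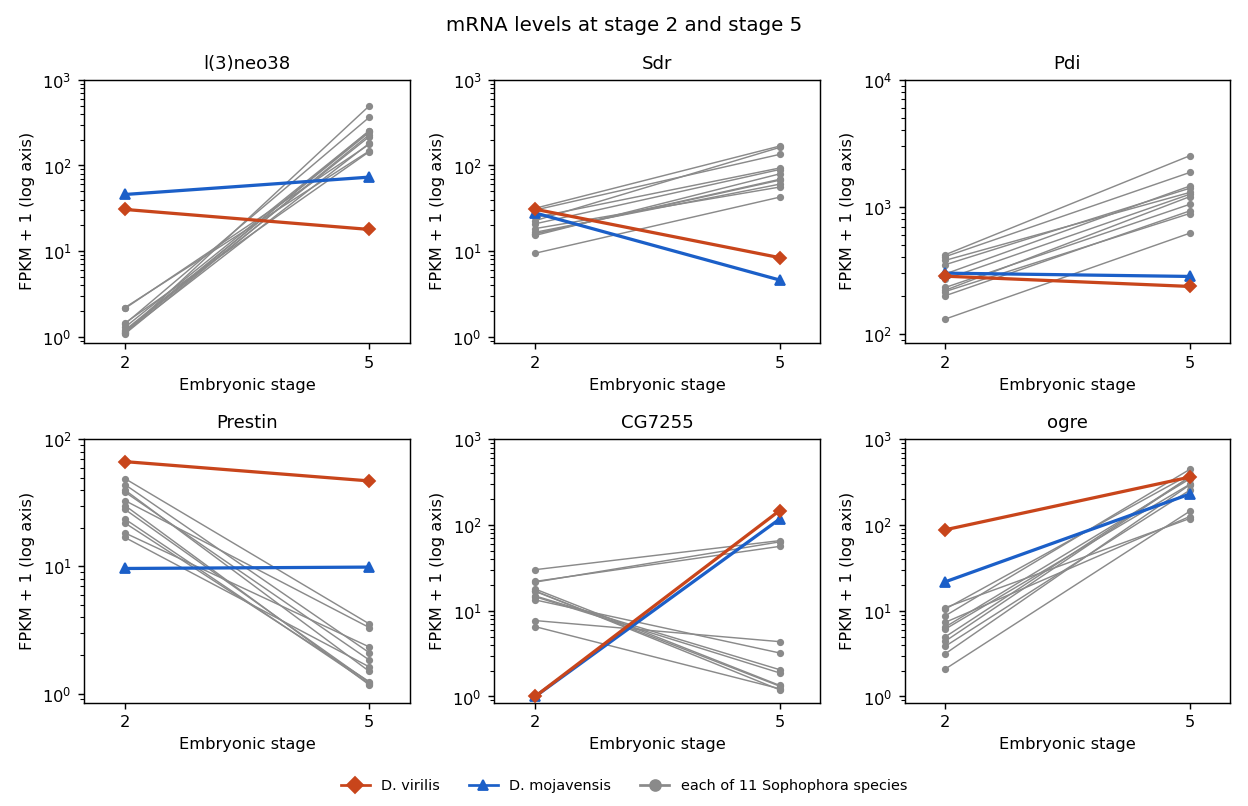
Levels as FPKM + 1 on a log axis at stage 2 and stage 5 for 6 genes, 1 line per species, with D. virilis in red, D. mojavensis in blue and the 11 Sophophora species in grey. The l(3)neo38 and ogre lines of the pair start above all grey lines at stage 2, the Sdr and Pdi lines end below them at stage 5, the Prestin lines end above them, and the CG7255 lines start below and end above.

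The level at each stage was then set against the Sophophora range, with column medians subtracted first. Among the 159 genes with a higher change, both species were above the range at stage 5 in 57, below it at stage 2 in 26, and not jointly outside it at either stage in 80, where a single species may still lie outside. Among the 176 with a lower change, both were below the range at stage 5 in 80, above it at stage 2 in 29, and not jointly outside at either stage in 71. The stage 5 level was thus the one outside more often than the stage 2 level in either set. Over all 3496 tested genes, both species were above the range in 149 and below it in 183 at stage 2, and above it in 119 and below it in 195 at stage 5. The D. melanogaster stage 2 column could be set beside the genes outside at stage 2: it lay inside the Sophophora range in 24 of 27 and 27 of 33 such genes, and over all tested genes outside at stage 2 in 275 of 332. Over all tested genes it lay inside in 3202 of 3496 (91.6%). D. melanogaster, a Sophophora species, was on the Sophophora side of both D. virilis and D. mojavensis in 27 of 27 and 31 of 33, against 315 of 332 over all tested genes.

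**Figure D4:**
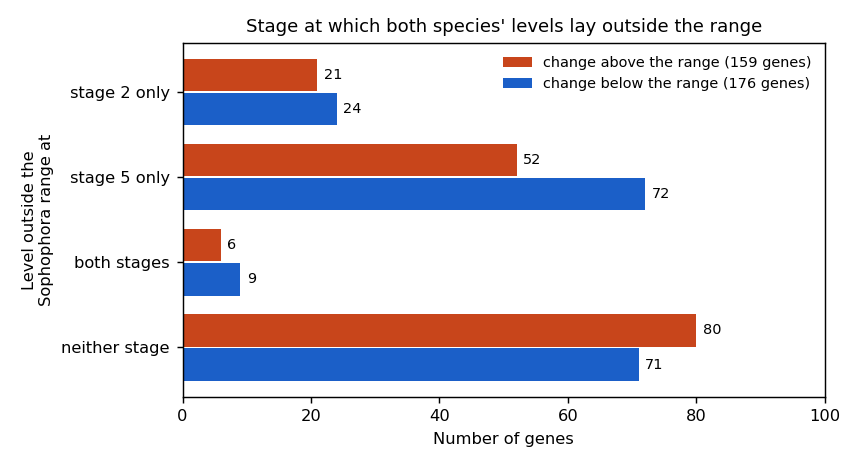
Number of genes by the stage at which the levels of both D. virilis and D. mojavensis lay outside the Sophophora range, for the 159 genes with a higher change (red) and the 176 with a lower change (blue); bars start at 0. Stage 5 alone accounts for 52 and 72 genes, stage 2 alone for 21 and 24, both for 6 and 9, and neither for 80 and 71.

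In 11 genes with a lower change the mRNA reached 1 FPKM at stage 2 in both subgenus Drosophila species while the Sophophora median was under 1. They are l(3)neo38, Hil, CG14937, pon, CG16791, grim, CG2930, Galt, CG11275, CG8306 and CG11796, listed after their values were seen. Galt, the galactose-1-phosphate uridylyltransferase of galactose breakdown, was at 27.4 FPKM at stage 2 and 33.9 at stage 5 in D. virilis, and at 19.8 and 1.7 in D. mojavensis. Its Sophophora values at stage 2 lay between 0.179 and 21.7 (median 0.549), and the highest exceeded D. mojavensis but not D. virilis; the limma adjusted p was 0.0667. The adaptor gene pon (partner of numb, which acts in asymmetric cell division) was at 25.8 FPKM at stage 2 and 10.9 at stage 5 in D. virilis, and at 31.2 and 12.2 in D. mojavensis, against 0.0283 to 28.8 (median 0.281) at stage 2 in the Sophophora species, so here too the ranges overlapped. The cell death gene grim was low throughout, at 2.78 FPKM at stage 2 and 2.4 at stage 5 in D. virilis, and at 2.53 and 0.573 in D. mojavensis, against 0 to 0.0801 (median 0) at stage 2. CG14937 was at 10.6 FPKM at stage 2 and 118 at stage 5 in D. virilis, and at 45.4 and 147 in D. mojavensis, and Hil at 28.4 FPKM at stage 2 and 0.691 at stage 5 in D. virilis, and at 23.1 and 0.538 in D. mojavensis. The Sophophora species had 0 to 6.72 (median 0.089) of CG14937 and 0.0338 to 3.85 (median 0.257) of Hil at stage 2, all below both others. The difference of the change was -4.28 ± 0.79 for CG14937 and -4.34 ± 0.75 for Hil (SE; limma adjusted p = 0.0108 and 0.00842). Without D. mojavensis neither was called (adjusted p of 0.160 and 0.0712), and without D. virilis Hil was not (0.0771).

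A level under 1 FPKM at stage 5 in both species, beside a Sophophora median of 1 or above, was found in 12 genes with a lower change. They are A16, CSN8, MED4, CG8112, CG7407, GstT4, didum, CG14883, CG32053, E(spl)m2-BFM, Inx7 and CG3548. The class V myosin didum, a motor that carries cargo along actin, was at 33.1 FPKM at stage 2 and 0.958 at stage 5 in D. virilis, and at 29 and 0.585 in D. mojavensis. In the Sophophora species it lay between 10.6 and 43 (median 23.5) at stage 2 and between 0.73 and 7.91 (median 3.33) at stage 5. It was lower at stage 5 in every species, and the difference was not called (limma adjusted p = 0.188). MED4, a subunit of the Mediator complex of transcription, was at 2.18 FPKM at stage 2 and 0.0513 at stage 5 in D. virilis, and at 3.06 and 0.161 in D. mojavensis, against 12.9 to 101 (median 23.6) at stage 5 in the Sophophora species, and was not called either (limma adjusted p = 0.221).

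Genes with a higher change held 9 that reached 1 FPKM at stage 5 in both species where the Sophophora median was under 1: Prestin, CG15117, Klp54D, Rab9, ChLD3, CG10186, CG17896, CG12914 and CG3822. Rab9, a small GTPase of transport from late endosomes, was at 12.1 FPKM at stage 2 and 11.2 at stage 5 in D. virilis, and at 9.22 and 17.3 in D. mojavensis, against 0.109 to 11.4 (median 0.697) at stage 5 in the Sophophora species, which overlaps the D. virilis value. Klp54D, a kinesin, was below 0.01 FPKM at stage 2 and 19.1 at stage 5 in D. virilis, and at 0.0356 and 3.7 in D. mojavensis, against 0.0115 to 7.38 (median 0.253). The limma adjusted p was 0.0302 for Rab9 and 0.0067 for Klp54D, and without D. virilis the Klp54D difference of 3.20 ± 0.54 became 2.12 (adjusted p = 0.127). The Rab9 call was lost without D. virilis, D. mojavensis or D. simulans (adjusted p of 0.0531 to 0.264). The reverse at stage 2, under 1 FPKM in both with a Sophophora median of 1 or above, was seen in 6 genes: CG7255, CG5567, CG17982, CG3394, CG15706 and LamC.

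By size and sign of the change, 64 of the 335 genes fell in a class that separated the subgenera, and in the other 271 the change lay outside the range without such a separation. The change was at least 1 in all Sophophora species and under 1 in both others in 8 genes: l(3)neo38, Pdi, CG14544, CG2493, CG15012, Ehbp1, chp and CG9018. Ehbp1, an adaptor between endocytosis and actin, was at 46.7 FPKM at stage 2 and 57.9 at stage 5 in D. virilis, and at 34.8 and 65.2 in D. mojavensis, against 3.15 to 23.5 (median 11.6) at stage 2 in the Sophophora species. At stage 2 the pair was above all of them, and at stage 5 inside their range (between 41.2 and 103), with a limma adjusted p of 0.133. The change was -1 or less in all Sophophora species and above -1 in both others in another 8: Prestin, CG3394, Bmcp, Sec15, Rab9, CG6638, RhoBTB and CG6287. Sec15, a subunit of the exocyst that tethers secretory vesicles, was at 26.7 FPKM at stage 2 and 36.8 at stage 5 in D. virilis, and at 28.9 and 30.9 in D. mojavensis, against 14.2 to 51.8 (median 23) at stage 2 and 0.17 to 9.47 (median 2.1) at stage 5. Bmcp, a mitochondrial carrier of the inner membrane, was at 52.7 FPKM at stage 2 and 37.2 at stage 5 in D. virilis, and at 38.2 and 49.9 in D. mojavensis, against 31.3 to 57.8 (median 40.9) at stage 2 and 0.625 to 11.5 (median 4.49) at stage 5. For both mRNAs the stage 2 levels overlapped between the subgenera and all Sophophora species were lower at stage 5. The differences were 3.45 ± 0.79 and 3.03 ± 0.70 (SE; limma adjusted p = 0.0345 and 0.0369). Both calls were lost without D. virilis, D. mojavensis, D. mauritiana or D. simulans, that of Sec15 also without D. pseudoobscura or D. sechellia, and that of Bmcp without D. yakuba (adjusted p of 0.0502 to 0.286).

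The class with a change of at least 1 in both subgenus Drosophila species and under 1 in all others held 22 genes, among them tun, l(1)G0334, gammaCOP, 4E-T, Stat92E and fl(2)d. The coatomer subunit gammaCOP, of vesicles between the Golgi and the endoplasmic reticulum, was at 50.6 FPKM at stage 2 and 149 at stage 5 in D. virilis, and at 35.4 and 101 in D. mojavensis, against 17.1 to 40.2 (median 26.6) at stage 5 in the Sophophora species (difference 2.10 ± 0.48; limma adjusted p = 0.0345). That call was lost without D. virilis, D. mojavensis, D. simulans, D. sechellia, D. yakuba or D. santomea (adjusted p of 0.0513 to 0.185). 4E-T, which binds the cap-binding protein eIF4E in translational repression, was at 61.5 FPKM at stage 2 and 140.4 at stage 5 in D. virilis, and at 63.7 and 147 in D. mojavensis, against 31.6 to 119 (median 63.1) at stage 5, and was not called (limma adjusted p = 0.0544). Both lay above all Sophophora species at stage 5. The opposite class, a change of -1 or less in both and above -1 in all others, held 26 genes, among them Sdr, CG14194, Tsp39D, Mgstl, Nrx-IV, RnrS, pon and grau. RnrS, the small subunit of ribonucleotide reductase that makes DNA precursors, was at 691 FPKM at stage 2 and 267 at stage 5 in D. virilis, and at 529 and 259 in D. mojavensis, against 132 to 458 (median 250.2) at stage 2 and 224 to 921 (median 404) at stage 5. Nrx-IV, a protein of septate junctions between epithelial cells, was at 23.9 FPKM at stage 2 and 10.1 at stage 5 in D. virilis, and at 27.5 and 11.3 in D. mojavensis, above the 5.53 to 11.4 (median 8.99) at stage 2 in the Sophophora species. The difference was -2.07 ± 0.40 for RnrS and -2.12 ± 0.50 for Nrx-IV (SE; limma adjusted p = 0.014 and 0.04). Without D. virilis or D. mojavensis RnrS was not called (adjusted p of 0.127 and 0.0786), and Nrx-IV stayed called only where D. ananassae, D. miranda or D. willistoni was the species left out (0.0535 to 0.201 without another). In 40 genes, 21 with a higher and 19 with a lower change, the sign was opposite between the pair and all 11 Sophophora species.

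In the lists of genes that pattern the embryo, no gene had both species outside the Sophophora range on the same side, although single species left it in some. None of the 7 gap and terminal genes, 6 pair-rule genes, 9 segment polarity genes, 15 zygotic dorsoventral genes, 9 maternal axis genes or 9 germ plasm genes met that rule or was called by limma. Their median differences ran from -0.03 for the gap and terminal genes to 0.52 for the germ plasm genes, beside 0.04 over all tested genes. With 4.55% and 5.03% of all genes outside, lists of this length would hold few such genes at that rate, so a count of 0 says little about any one of them. Of 39 lists, 15 had 1 or more genes outside the range. The lists do not hold every patterning gene. Outside them, Ubx had both species above the range (difference 1.17) and E(spl)m2-BFM both below it (-1.43).

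Among regulators of the transition, 1 of 4 genome activation factors, Stat92E, and 1 of 8 regulators of maternal mRNA, bel, lay above the range. Stat92E, the transcription factor of the JAK/STAT pathway, was at 87.7 FPKM at stage 2 and 201 at stage 5 in D. virilis, and at 88.8 and 281 in D. mojavensis, against 55.3 to 147 (median 91) at stage 5 in the Sophophora species. Both values exceeded all of theirs, and the difference of 1.58 ± 0.54 was not called (SE; limma adjusted p = 0.164). bel, a DEAD-box RNA helicase, had changes of 0.63 in D. virilis and 0.84 in D. mojavensis, against -2.05 to 0.61 (limma adjusted p = 0.304). fl(2)d, which acts in the splicing of Sxl and is part of the complex that methylates adenosine in mRNA, was 1 of 9 sex determination genes and had changes of 1.18 in D. virilis and 1.41 in D. mojavensis, against -0.61 to 0.96 (limma adjusted p = 0.361). lok, the checkpoint kinase Chk2, was the 1 of 11 cell cycle regulators outside, with -1.92 in D. virilis and -1.69 in D. mojavensis against -1.37 to -0.16 (limma adjusted p = 0.178).

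Gap junction proteins (innexins) had 2 of 3 tested genes below the range, against 5.03% of all tested genes, and a list of 3 genes is too short to read that count. Both lay only just outside. The ogre changes were 2.04 in D. virilis and 3.40 in D. mojavensis, against 3.45 to 6.54 in the Sophophora species. Those of Inx7 were 0.07 in D. virilis and 0.32 in D. mojavensis, against 0.37 to 2.78. ogre mRNA was at 87.1 FPKM at stage 2 and 361 at stage 5 in D. virilis, and at 20.8 and 229 in D. mojavensis. The Sophophora species had 1.09 to 9.88 (median 5.11) at stage 2 and 118 to 445 (median 297) at stage 5. At stage 2 both species were above all Sophophora species and above D. melanogaster (1.75 FPKM), and at stage 5 the ranges overlapped. The difference was -2.83 ± 0.69 (SE; limma adjusted p = 0.0496), a call lost in 20 of 28 alternatives, among them leaving out any 1 of 11 species, that is each but D. willistoni and D. yakuba (adjusted p of 0.0567 to 0.393). Inx7 was under 1 FPKM at both stages in both species, against 0.296 to 7.54 (median 2.57) at stage 5 in the Sophophora species (limma adjusted p = 0.281). Of 6 tetraspanins, Tsp39D lay below the range and Tsp74F above it, with -2.83 in D. virilis and -4.15 in D. mojavensis against -6.53 to -4.60 (limma adjusted p = 0.0738, and 0.0469 without D. ananassae).

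Of 38 ribosomal proteins, 1 lay outside, which was RpLP1, an acidic protein of the large subunit's stalk. RpLP1 was at 727 FPKM at stage 2 and 1680 at stage 5 in D. virilis, and at 201 and 219 in D. mojavensis, against 235 to 1583 (median 652) at stage 2 and 1014 to 6376 (median 2098) at stage 5. The D. mojavensis level was below all Sophophora species at both stages, and the D. virilis level inside their range at both. The difference was -1.29 ± 0.27 (SE; limma adjusted p = 0.0188), and it was -0.75, with a limma adjusted p of 0.347, without D. mojavensis. Of 43 mitochondrial ribosomal proteins, mRpL46, mRpS6 and mRpL45 lay above and mRpS10 below the range, and none was called (limma adjusted p of 0.0815 to 0.355). The proteasome lid subunit Rpn11 was the 1 of 18 proteasome subunits outside, at 188 FPKM at stage 2 and 444 at stage 5 in D. virilis, and at 133 and 206 in D. mojavensis (limma adjusted p = 0.173). Hsc70-5, the mitochondrial Hsp70, was the 1 of 4 heat shock proteins outside, with -1.28 in D. virilis and -0.38 in D. mojavensis against -5.68 to -1.43 (limma adjusted p = 0.19). Of 11 kinesins and dyneins tested, Klp54D lay above and Klp98A below, with -1.29 in D. virilis and -2.49 in D. mojavensis for the latter against -0.95 to 0.68 (limma adjusted p = 0.164). In none of the 10 subunits of the vacuolar proton pump or the 10 nuclear pore genes were both species outside on the same side.

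Genes under 1 FPKM at both stages in D. virilis or D. mojavensis were kept apart, since so low a level can also come from a faulty gene model. They were 2 of the 159 genes and 8 of the 176, against 239 of all 3496. The 4 with the largest gap were CG3394, GstT4, TAF1C-like and CG32053. CG3394 was at most 0.0242 FPKM in both species at either stage, where the Sophophora species had 11.9 to 107 (median 30) at stage 2 and 0.359 to 7.45 (median 0.828) at stage 5 and D. melanogaster 17.5 at stage 2. The 11 Sophophora species were all above both at stage 2 and at stage 5 (difference 3.97 ± 0.76; limma adjusted p = 0.0136, and 0.0986 to 0.101 without D. virilis or without D. mojavensis). GstT4, a glutathione S-transferase, was at 0.724 FPKM at stage 2 and 0.199 at stage 5 in D. virilis, and at 11.1 and 0.632 in D. mojavensis, so that D. mojavensis did hold the mRNA at stage 2, and its limma adjusted p was 0.0568, which became 0.0369 without D. ananassae and 0.0285 without D. willistoni. TAF1C-like was at 4.04 FPKM at stage 2 and 3.05 at stage 5 in D. virilis, and at 0.893 and below 0.01 in D. mojavensis, against 24.9 to 103 (median 32.6) at stage 5 (limma adjusted p = 0.19). CG32053 was listed at 0 at stage 2 and at most 0.0867 at stage 5 in both, against 1.17 to 10.9 (median 4.1) at stage 5 (limma adjusted p = 0.157).

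Mixing with D. melanogaster material divided the species across both subgenera. In the comparison of mixed libraries alone, D. mojavensis against D. simulans, D. sechellia, D. santomea and D. persimilis, the difference was -6.91 for l(3)neo38, -4.67 for Sdr, -2.22 for Pdi, 4.22 for Prestin and 8.61 for CG7255. All 5 have the sign of the difference over all species, which the choice of genes fixes. This sets 1 species against 4, so the spread comes from the Sophophora species alone and a call speaks for D. mojavensis, not for the subgenus. limma called 1 gene higher, Dcp-1, an effector caspase of cell death, and 2 lower, CG14194 and CG10470. Against the 7 unmixed Sophophora species alone, limma called 7 genes higher and 10 lower, among them l(3)neo38, Sdr, Pdi, Prestin and CG7255. In that comparison D. mojavensis was mixed at both stages and D. virilis at stage 2, so mixing cannot be told apart from subgenus. The D. virilis change sets reanalysed, unmixed stage 5 libraries against mixed stage 2 libraries, so in this species stage cannot be told apart from mixing and series. Whether the mixing moved any of these values was not tested further, as D. virilis was mixed at stage 2 only.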

How the data were processed

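Single embryos were sequenced by the authors, who extracted total RNA with TRIzol and made TruSeq libraries, per the labels' protocols. Per the submitters' processing notes, the tools were cutadapt, TopHat2, Cufflinks, Cuffnorm and Cuffdiff; the sources used here name no version or build. The deposited values are taken as FPKM, from the tools named and the range of the values, with 1 value per gene, species and stage. In the wider table the header is shifted by 1 column, which was corrected on reading. A D. melanogaster stage 5 column in each table, 2 columns in all, matched no sample and was not used. Depth is unknown, so no counting interval is given, and 1350 of 90896 values are listed at 0, which can be failed estimates.

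Genes with a mean of at least 1 FPKM over 26 columns were kept; the lowest mean kept was 1.07 (CG3829) and the highest left out 0.987 (CG7142). The change per species, on log2(FPKM+1) (pseudocount 1, which understates changes of low mRNAs), was compared between subgenera with limma 3.58.1 in R 4.3.3 (eBayes with trend, two-sided, Benjamini-Hochberg adjustment over 3496 genes). The code was first run on simulated data with every species drawn independently, so that check does not cover shared ancestry. Species share ancestry, so limma's p-values treat related species as independent. Levels per stage were centred on the column median. Named genes are the 12 per direction with the largest gap to the nearest Sophophora species among genes at 1 FPKM or above at either stage in D. virilis, D. mojavensis and at least 9 Sophophora species, the 4 largest gaps among genes under 1 FPKM in D. virilis or D. mojavensis, up to 4 per direction from each of 39 gene lists, and the genes at the edge of the range; others were chosen after their values were seen. Members and lists were chosen with earlier results of these data known. Gene symbols are those of the table, and 278 of the 335 match current symbols.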

Additional observations from a re-analysis of the deposited data

Results flagged for a closer look

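The stage change differed between the subgenera by limma's test of that difference (adjusted p under 0.05, 13 species) in 26 of the genes picked by the rule of naming. Other called genes described above, such as RnrS and Hil, were chosen after their values were seen and are not repeated here. The values that follow are the mean change of D. virilis and D. mojavensis minus that of the Sophophora species on the log2(FPKM+1) scale. In each of these genes both species lay beyond all 11 others on the stated side, which the choice of genes fixes. With shared ancestry in the model, 6 of the 26 kept their call.

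Above the Sophophora species were CG7255 by 8.70, CG5567 by 6.90, CG14450 by 4.48 and CG17982 by 3.45, all with stage 2 levels below the Sophophora range. The difference was 4.12 for tun and 3.16 for CG11342, which were also low at stage 2. It was 3.83 for the anion transporter Prestin, 3.96 for CG7772, 3.58 for the pyruvate dehydrogenase subunit l(1)G0334, 2.88 for Jwa and 2.15 for the translation factor eIF5B, which all stood above the Sophophora species at stage 5. The kinesin Klp54D differed by 3.20, and CG3394, near 0 in both subgenus Drosophila species, by 3.97.

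Below the Sophophora species, l(3)neo38 differed by -7.47 and the innexin ogre by -2.83, both with stage 2 levels above the Sophophora range. The insulin-pathway gene Sdr differed by -4.39, Mgstl by -4.38, the tetraspanin Tsp39D by -4.22, CG10470 by -4.10, CG14194 by -4.07, CG13016 by -4.02, A16 by -3.93 and CG1104 by -3.30. CG31637 differed by -2.56, Pdi by -2.38 and the ribosomal protein RpLP1 by -1.29. Groups of 2 species are too small to look for single species that stand apart.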

How the results depend on the processing

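No paired analysis was possible because the deposited columns combine the embryos of a species and stage and carry no replicate number. No named gene changed the sign of its difference in any alternative run. For the named genes outside the range, leaving out or averaging species cannot change that sign by construction. The filters on the mean and the eBayes settings leave the difference itself as it is. The counts of genes outside the range (159 higher, 176 lower) were 161 to 450 and 180 to 469 when 1 species was left out, 295 and 321 with clade means, 970 and 830 for D. mojavensis against the mixed Sophophora species, 57 and 64 at least 0.5 outside, and 317 and 343 of 6592 genes in the wider table. Leaving out or averaging Sophophora species can only narrow the range, and leaving out D. virilis or D. mojavensis drops the need for both to lie outside, so the counts under those settings cannot fall by construction. The comparison of D. mojavensis with the mixed species does both at once. The limma counts (28 higher, 37 lower) were 8 to 41 and 16 to 51 when 1 species was left out, 5 and 10 with clade means, 2 and 4 with phylogenetic least squares, 1 and 2 for D. mojavensis against the mixed Sophophora species, 7 and 10 against the unmixed, 42 and 64 after quantile normalization, and 56 and 79 in the wider table; the wider table has more genes, and for the other settings the cause was not tested, the highest counts being those without D. willistoni among the fits that left out 1 species. Without D. virilis, 4 and 15 of the called genes remained, and without D. mojavensis 6 and 7. After quantile normalization 119 and 123 of the genes outside the range remained so. Pseudocounts of 0.1 and 5, leaving out D. pseudoobscura and D. miranda together, and other filters on the mean kept the counts within 1.5 times. So did median centring, the same total of genes below 100000 FPKM, and limma without trend or with robust fitting. Changes of mRNAs near or below 1 FPKM depend most on the pseudocount by its construction, and the unknown depth sets no limit that could be stated.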
